A study of Mus musculus with 9 samples.

Results

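The genes described here are 47 cell cycle genes: the helicase, licensing and nucleotide supply genes of DNA replication, the cyclins, kinases and E2f1 that carry cells through G1 into S phase, the mitotic genes, and 2 transcription factors of the late cycle, Foxm1 and Mybl2. They were chosen by gene symbol on the platform, and their probes were kept where a detection p-value below 0.01 was reached on 3 or more of the 9 arrays. Of the 47 genes, 46 had a named probe (103 probes in all), and 40 had at least 1 kept probe (75 probes), out of 11077 genes measured on the arrays. All 16 replication genes, all 8 genes of G1 and S entry and both late transcription factors were measured, but of the 21 mitotic genes 14 were. No named probe stood for Mki67, and the probes of Ccna2, Ccnb2, Bub1, Cenpe, Kif20a and Ube2c were detected on too few arrays. Just inside the threshold, at 3 arrays, lay a second probe each of Mcm4 and Rrm2, and just outside it, at 1 array, the probe of Ccna2 and further probes of Tyms, Top2a and Mybl2. The brightest kept probe (by its mean level on all arrays) stands for each gene. For 39 of the 40 genes this probe was detected on all 9 arrays, and for Pcna on 7.

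RNA was measured on single-colour Illumina arrays in 3 groups of C57BL/6 mouse cells, with 3 arrays each: putative female germ cells (PFGC) and oocytes, both labelled as magnetically sorted, and spermatogonial stem cells (SSC), labelled as cultured. The antibody of the sort, the age of the animals, the tissue of origin and the culture conditions are not in the labels, and no label tells separate cultures or animals apart among the replicates. The p-values therefore reflect the spread of these samples alone, which may be technical. Magnetic sorting and culture cannot be told apart from the cell types they go with. Between 17631 and 18919 of 45281 probes (38.9% to 41.8%) were detected per array, and precision is limited by having 3 arrays a group. Levels are log2 values after background correction and quantile normalization, and they compare groups within a probe, not genes with each other. A gene is called higher or lower when its limma p-value, adjusted by Benjamini-Hochberg over all 19934 kept probes, was under 0.05.

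Replication origins are licensed in G1, when ORC, CDC6 and CDT1 load the MCM2 to MCM7 helicase onto DNA, and they fire in S phase, when CDC45 and the GINS complex join the helicase and turn it into the moving fork. Many of these genes are transcribed through E2F sites once cyclin D and cyclin E kinases release E2F from the RB family. Many mitotic genes are switched on later in the cycle by MYBL2, FOXM1 and the MuvB complex through CHR elements. Promoters of mitotic genes often hold CCAAT boxes too. Growing oocytes are arrested in the first meiotic prophase and replicate no DNA, yet they store RNA of cell cycle genes for meiosis and the first cleavages, whereas spermatogonial stem cells divide in culture.

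Markers of the labelled cell types were examined first. The 10 oocyte markers, among them the secreted growth factor Gdf9 and the subcortical maternal complex gene Ooep, were all detected on every PFGC and every oocyte array, and 4 of 10 on every SSC array. Of the 10 markers of spermatogonial stem cells, 7 were detected on all PFGC arrays, 5 on all oocyte arrays and 9 on all SSC arrays, and the GDNF receptor gene Gfra1 was detected on no oocyte array. The linear levels of the oocyte markers summed to 21040 to 24549 in PFGC, 25707 to 26515 in oocytes and 463 to 534 in SSC. Those of the stem cell markers summed to 1108 to 1363 in PFGC, 986 to 1104 in oocytes and 3519 to 4243 in SSC. Other cells were represented as well. The summed linear level of the 9 Sertoli markers with a probe was 17672 to 27018 in PFGC, 3926 to 4358 in oocytes and 81860 to 86480 in SSC, with all 9 detected on every SSC array. That of the 10 granulosa markers with a probe was 20487 to 22681 in PFGC, 24350 to 26227 in oocytes and 8087 to 9248 in SSC, where Foxl2, Nr5a2, Esr2 and Fst were not detected on any array. Within that list Fshr and Amh went the other way. Fshr was 2.08-fold lower in PFGC and 2.19-fold lower in oocytes than in SSC, and Amh was 2.01-fold lower in PFGC and at least 2.10-fold lower in oocytes, where no array detected it. Endothelial markers summed to 3593 to 3868 in PFGC, 4948 to 5421 in oocytes and 1537 to 1765 in SSC. Steroidogenic markers summed to 2713 to 3397 in PFGC, 4293 to 4527 in oocytes and 1331 to 1401 in SSC. Erythroid markers summed to 31301 to 33684 in PFGC, 32726 to 35538 in oocytes and 18584 to 27135 in SSC, and macrophage markers summed to 870 to 1087 in PFGC, 1483 to 1803 in oocytes and 697 to 871 in SSC. Fibroblast and feeder markers summed to 24757 to 26512 in PFGC, 28019 to 30238 in oocytes and 34202 to 41004 in SSC. Meiotic and postmeiotic male germ cell markers summed to 5268 to 6970 in PFGC, 1414 to 1517 in oocytes and 948 to 8844 in SSC. These are bulk samples in which fewer cycling cells and less RNA of a gene per cell cannot be told apart, and the part of these other cells in the differences below was not tested.

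Among the replication genes, PFGC levels were lower than SSC levels wherever a gene was called. Of 16 measured, 8 were called lower (50%) and 0 higher, where over all 11077 genes 26.8% were called lower and 23.7% higher. Their median log2 fold change was -0.39, against -0.06 over all genes. Equal counts, 8 lower and 0 higher, were found when arrays were scaled to their 75th percentile, by cyclic loess or not at all. In that order these fits called 23.6%, 23.4% and 24.9% of all genes lower and 25.8%, 26.1% and 18.1% higher. At an unadjusted p under 0.05 the limma counts were also 8 lower and 0 higher. No share of all genes was counted at that cutoff, here or below, so such counts have no background beside them. Over all 40 measured genes the calls were 5 higher and 15 lower. That is 50% of them, near the 50.5% of all genes called in either direction. With the replicate number as a block, 9 were called higher and 16 lower, beside 27.2% higher and 31.8% lower over all genes in that fit.

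In oocytes the difference from SSC ran the same way. Of the 16 replication genes, 11 were called lower (68.8%) and 0 higher, beside 32.4% lower and 28.1% higher over all genes, and their median log2 fold change was -0.62, against -0.07 over all genes. At an unadjusted p under 0.05 these counts were also 11 and 0. Across the 40 genes 5 were called higher and 19 lower, 60% of them, beside 60.5% of all genes. With the replicate block 8 were called higher and 22 lower, beside 31.1% and 36.4% of all genes in that fit. Without normalization between arrays 7 replication genes were called lower in oocytes and 0 higher, beside 22% and 29.7% of all genes. Both comparisons use the same 3 SSC arrays, so they are not independent of each other.

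**Figure D1:**
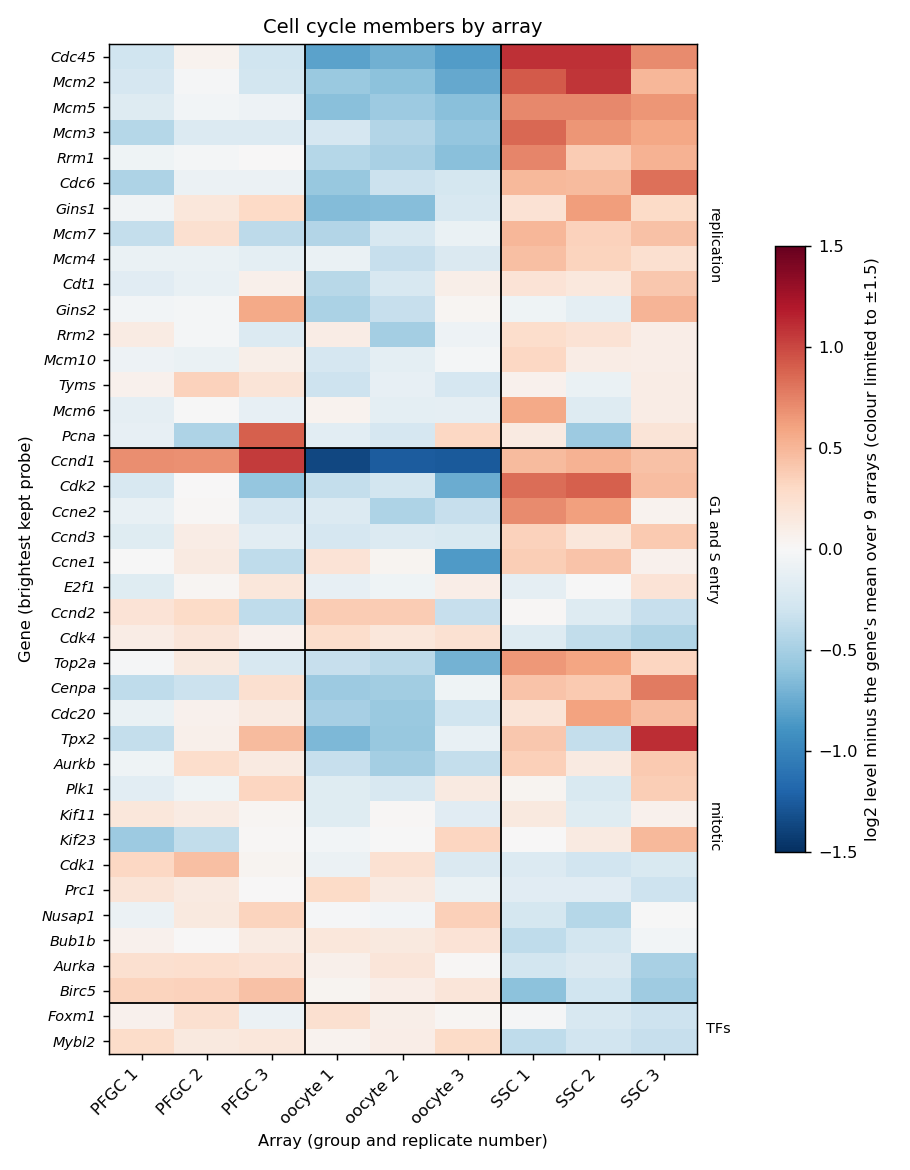
Log2 level of each of the 40 measured genes (rows, in blocks by role) on each of the 9 arrays (columns), as the difference from the gene's mean over the 9 arrays, with colour limited to 1.5 log2 units either way. Most replication genes, at the top, are red on the 3 SSC arrays and blue on the 3 oocyte arrays, with PFGC arrays closer to white, and Ccnd1 is blue on the oocyte arrays alone.

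Cdc45, which joins the helicase at origin firing, had the largest differences from SSC among the replication genes. Its log2 level was 8.74, 9.08 and 8.74 on the PFGC arrays, 8.24, 8.32 and 8.20 on the oocyte arrays, and 10.13, 10.13 and 9.74 on the SSC arrays. The 3 groups did not overlap, and oocytes were lowest. The log2 fold change was -1.15 in PFGC against SSC (SE 0.15, 2.21-fold lower, adjusted p = 0.000139, limma) and -1.75 in oocytes against SSC (SE 0.15, 3.36-fold lower, adjusted p = 4.31e-06).

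Mcm2 encodes a helicase subunit. On the PFGC arrays Mcm2 stood at 9.77, 10.001 and 9.75, on the oocyte arrays at 9.47, 9.40 and 9.26, and on the SSC arrays at 10.94, 11.10 and 10.52. Here too each SSC array was above every PFGC and oocyte array. Mcm2 was 2.02-fold lower in PFGC than in SSC (log2 fold change -1.01, SE 0.16, adjusted p = 0.000509) and 2.78-fold lower in oocytes than in SSC (-1.47, SE 0.16, adjusted p = 2.53e-05).

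The other helicase subunits fell into a clear and a less clear set. Mcm3 read 8.15, 8.36 and 8.37 in PFGC, 8.32, 8.13 and 7.998 in oocytes, and 9.44, 9.23 and 9.16 in SSC. Mcm5 read 11.27, 11.42 and 11.39 in PFGC, 10.84, 10.92 and 10.84 in oocytes, and 12.19, 12.19 and 12.13 in SSC. For both genes the SSC arrays lay above all others, and for Mcm5 the PFGC arrays also lay above the oocyte arrays. Mcm3 had log2 fold changes of -0.98 in PFGC (SE 0.14, adjusted p = 0.000202) and -1.12 in oocytes (SE 0.14, adjusted p = 5.16e-05) against SSC, and Mcm5 of -0.81 in PFGC (SE 0.11, adjusted p = 0.000144) and -1.30 in oocytes (SE 0.11, adjusted p = 3.04e-06).

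Mcm4 levels were 11.63, 11.63 and 11.58 in PFGC, 11.64, 11.39 and 11.52 in oocytes, and 12.18, 12.06 and 11.97 in SSC. Mcm7 levels were 8.76, 9.36 and 8.73 in PFGC, 8.69, 8.88 and 9.02 in oocytes, and 9.62, 9.47 and 9.56 in SSC. The SSC arrays were the highest for both genes, by a smaller margin than for Mcm2, Mcm3 and Mcm5. Mcm4 was called lower in PFGC (log2 fold change -0.46, SE 0.12, adjusted p = 0.00894) and in oocytes (-0.56, SE 0.12, adjusted p = 0.00218), as was Mcm7 (-0.60, SE 0.18, adjusted p = 0.0181 in PFGC, and -0.69, SE 0.18, adjusted p = 0.00724 in oocytes). Of the 2 dimmer probes of Mcm4, 1 was at least 1.23-fold lower in PFGC (detected on no PFGC array, adjusted p = 0.0237), while the other was not called there, and neither was called in oocytes. The called probe passed the detection filter through arrays of the other groups alone, so its call in PFGC adds no support. The dimmer kept probe of Mcm7 was called in neither group (-0.64 in PFGC, adjusted p = 0.0931, and -0.71 in oocytes, adjusted p = 0.0565).

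Mcm6 was the only helicase subunit not called against SSC by its brightest probe. It read 10.66, 10.78 and 10.67 in PFGC, 10.85, 10.64 and 10.65 in oocytes, and 11.35, 10.59 and 10.90 in SSC, and the groups overlapped because SSC replicate 2 was the lowest of all 9 arrays. The log2 fold change was -0.25 in PFGC (95% interval -0.65 to 0.15, adjusted p = 0.275) and -0.24 in oocytes (95% interval -0.63 to 0.16, adjusted p = 0.281), so a decrease like that of Mcm4 lies within both intervals. A second Mcm6 probe was called lower in oocytes (-0.35, adjusted p = 0.0315).

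Of the licensing and firing factors, Cdc6, which brings the helicase to ORC, was at 6.72, 7.09 and 7.09 in PFGC, 6.61, 6.85 and 6.91 in oocytes, and 7.67, 7.66 and 8.01 in SSC. The SSC arrays did not overlap with the others. Relative to SSC, Cdc6 was lower by 1.75-fold in PFGC (log2 fold change -0.81, SE 0.16, adjusted p = 0.00179) and by 1.98-fold in oocytes (-0.99, SE 0.16, adjusted p = 0.00036).

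Cdt1, its partner in licensing, had a log2 fold change of -0.32 in PFGC (adjusted p = 0.105, or 0.0261 with the replicate number as a block) and was called lower in oocytes (-0.44, adjusted p = 0.0294). Mcm10, a fork scaffold, gave -0.20 in PFGC (adjusted p = 0.201) and -0.32 in oocytes (adjusted p = 0.0468) by its brightest probe. Its dimmest kept probe was called lower in PFGC (-0.95, adjusted p = 0.000674), as was the mean of its probes (-0.49, adjusted p = 0.00259). Both were called lower in oocytes as well. Gins1, a subunit of the GINS complex, was called lower in oocytes alone among the SSC comparisons, at 8.25, 8.27 and 8.66, against 9.13, 9.54 and 9.19 in SSC (log2 fold change -0.89, SE 0.17, adjusted p = 0.00104). In PFGC it read 8.86, 9.08 and 9.20 and overlapped with SSC (-0.24, 95% interval -0.61 to 0.13). Gins2, of the same complex, gave 0.07 in PFGC (95% interval -0.44 to 0.57) and -0.36 in oocytes (95% interval -0.87 to 0.14), and the oocyte value was called with the replicate block (adjusted p = 0.0114).

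Nucleotide supply genes differed among themselves. Rrm1, the large subunit of ribonucleotide reductase, stood at 9.97, 10.003 and 10.03 in PFGC, 9.60, 9.54 and 9.40 in oocytes, and 10.76, 10.41 and 10.55 in SSC, with no overlap between any of the groups. Its log2 fold change was -0.57 in PFGC (SE 0.13, adjusted p = 0.00366) and -1.06 in oocytes (SE 0.13, adjusted p = 4.51e-05). Rrm2, the small subunit, was not called by its brightest probe (-0.23 in PFGC, adjusted p = 0.288, and -0.35 in oocytes, adjusted p = 0.0936), while 1 of its 2 other probes, detected on the SSC arrays alone, was called lower in both (at least 1.38-fold in PFGC and at least 1.43-fold in oocytes). That probe passed the detection filter through the SSC arrays alone, so it could be called only as lower and adds no support. Tyms, which makes thymidylate, gave 0.17 in PFGC (95% interval -0.11 to 0.45) and -0.26 in oocytes (95% interval -0.54 to 0.02). Pcna, the sliding clamp, was measured least precisely of the 16, with log2 fold changes of 0.18 in PFGC (95% interval -0.56 to 0.92) and 0.04 in oocytes (95% interval -0.70 to 0.78).

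Promoter windows of 300 bases from RefSeq (build GRCm38.p6), lying mostly upstream of the start of a gene and reaching just past it, were found for 36 of the 47 genes. They number 14 for 13 replication genes, since Mcm7 has 2, and 18 for 17 mitotic genes, measured or not, since Prc1 has 2. They were searched on both strands for 4 E2F sites (TTCCCGC as well as TTGGCGC, in addition TTCGCGC, and finally TTGCCGC), the CHR element (TTTGAA) and the CCAAT box (CCAAT), and matches may overlap each other. An E2F site was found in 9 of 14 windows of replication genes (64.3%) and in 2 of 18 windows of mitotic genes (11.1%), beside 9.57% of all 32851 windows. A CHR element was found in 2 of 14 replication windows (14.3%) and 14 of 18 mitotic windows (77.8%), beside 17.9% of all windows. CCAAT boxes were found in 11 of 14 replication windows (78.6%) and 16 of 18 mitotic windows (88.9%), beside 37.4% of all windows. Such matches describe the letters and are not evidence of binding.

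The windows of Cdc45 (chr16:18811923-18812222, minus strand) and Mcm2 (chr6:88898731-88899030, minus strand) are printed because these genes had the largest differences in PFGC among the replication genes, and that of Mcm5 (chr8:75109259-75109558, plus strand), chosen after the matches were seen, because it holds E2F sites. Each reads 5′ to 3′ along the gene's strand, with matches in capitals.
Cdc45: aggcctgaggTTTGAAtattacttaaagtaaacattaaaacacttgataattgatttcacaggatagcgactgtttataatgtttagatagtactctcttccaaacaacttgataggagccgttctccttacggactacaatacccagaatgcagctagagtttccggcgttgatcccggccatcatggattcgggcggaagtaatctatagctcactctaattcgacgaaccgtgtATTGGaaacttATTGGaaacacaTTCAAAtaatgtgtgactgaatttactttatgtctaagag
Mcm2: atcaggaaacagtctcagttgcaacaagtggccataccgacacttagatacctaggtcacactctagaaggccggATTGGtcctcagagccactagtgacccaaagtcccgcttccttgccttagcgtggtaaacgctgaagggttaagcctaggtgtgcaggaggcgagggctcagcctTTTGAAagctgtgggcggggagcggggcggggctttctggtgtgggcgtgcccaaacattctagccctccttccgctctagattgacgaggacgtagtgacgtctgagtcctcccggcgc
Mcm5: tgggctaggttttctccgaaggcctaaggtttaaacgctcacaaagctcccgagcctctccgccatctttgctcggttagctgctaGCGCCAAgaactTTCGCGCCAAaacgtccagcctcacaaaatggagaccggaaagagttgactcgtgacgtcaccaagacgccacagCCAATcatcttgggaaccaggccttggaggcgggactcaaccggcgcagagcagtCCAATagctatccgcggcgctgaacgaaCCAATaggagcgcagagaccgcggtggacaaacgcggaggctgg
Cdc45 has 2 CHR elements and 2 CCAAT boxes, Mcm2 has 1 CHR element and 1 CCAAT box, and neither has 1 of the 4 E2F sites in this window. Mcm5 has 3 E2F matches, of which 2 overlap, and 3 CCAAT boxes. Among replication genes with a window, 5 of the 7 called lower in PFGC had an E2F match, as did 3 of the 6 that were not called. In oocytes these were 6 of 9 and 2 of 4.

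Of the 8 genes of G1 and S entry, 1 was called higher and 3 lower in PFGC against SSC, beside 23.7% and 26.8% of all genes. In oocytes 1 was called higher and 4 lower, beside 28.1% and 32.4% of all genes. Ccnd1, which encodes cyclin D1, the D cyclin that growth signals induce, separated the groups most. Its level was 10.76, 10.75 and 11.11 in PFGC, 8.69, 8.82 and 8.81 in oocytes, and 10.54, 10.58 and 10.50 in SSC. PFGC arrays were the highest, SSC arrays stood just below them without overlap, and oocyte arrays were far below both. In oocytes Ccnd1 was 3.40-fold lower than in SSC (log2 fold change -1.77, SE 0.13, adjusted p = 1.28e-06). In PFGC the log2 fold change against SSC was 0.34 (95% interval 0.05 to 0.62), which narrowly missed the threshold (adjusted p = 0.0529) and passed it with the replicate block (adjusted p = 0.0379). The other 2 Ccnd1 probes were called higher in PFGC (0.40 and 0.74) and lower in oocytes (-1.80 and -2.11).

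The other D cyclins did not share this pattern. Ccnd2 was at 12.08, 12.16 and 11.49 in PFGC, 12.26, 12.25 and 11.53 in oocytes, and 11.89, 11.68 and 11.53 in SSC. The groups overlapped, and the arrays numbered 3 were the lowest of each group. Its log2 fold change was 0.21 in PFGC (95% interval -0.31 to 0.74) and 0.31 in oocytes (95% interval -0.21 to 0.84), with neither called, although 1 of its 2 other probes was called higher in oocytes (0.95). Ccnd3 was at 10.001, 10.29 and 10.02 in PFGC, 9.93, 9.98 and 9.95 in oocytes, and 10.52, 10.35 and 10.57 in SSC. Every SSC array of Ccnd3 was above the others, and it was called lower in PFGC (-0.38, SE 0.12, adjusted p = 0.0292) and in oocytes (-0.53, SE 0.12, adjusted p = 0.00432).

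Cdk4, the kinase partner of the D cyclins, was called higher in both. It stood at 11.63, 11.70 and 11.58 in PFGC, 11.78, 11.69 and 11.75 in oocytes, and 11.33, 11.16 and 11.07 in SSC, and the SSC arrays were lower than all others. The log2 fold change was 0.45 in PFGC (SE 0.11, adjusted p = 0.00801) and 0.56 in oocytes (SE 0.11, adjusted p = 0.00193). The dimmer kept probe of Cdk4 was called in neither (0.50 in PFGC, adjusted p = 0.088, and 0.56 in oocytes, adjusted p = 0.0546). Cdk2, the kinase partner of the E cyclins, moved the other way, at 10.69, 10.94 and 10.36 in PFGC, 10.58, 10.67 and 10.19 in oocytes, and 11.77, 11.84 and 11.40 in SSC. It was 2.01-fold lower in PFGC (-1.01, SE 0.19, adjusted p = 0.00162) and 2.29-fold lower in oocytes (-1.19, SE 0.19, adjusted p = 0.000388), and all 4 Cdk2 probes were called lower, by between -0.85 and -1.01 in PFGC and -1.03 and -1.19 in oocytes.

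Ccne2, encoding an E cyclin, stood at 7.38, 7.51 and 7.24 in PFGC, 7.29, 7.03 and 7.15 in oocytes, and 8.20, 8.11 and 7.55 in SSC, where replicate 3 lay closest to the other groups. It was called lower in PFGC (-0.57, SE 0.18, adjusted p = 0.0214) and in oocytes (-0.79, SE 0.18, adjusted p = 0.00312). Ccne1, the other E cyclin, gave -0.37 in PFGC (95% interval -0.95 to 0.21) and -0.48 in oocytes (95% interval -1.06 to 0.09), and the oocyte value was called with the replicate block (adjusted p = 0.023). E2f1, the activator of S-phase genes, differed little in its means, with log2 fold changes of -0.01 in PFGC (95% interval -0.33 to 0.30) and -0.04 in oocytes (95% interval -0.36 to 0.27).

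**Figure D2:**
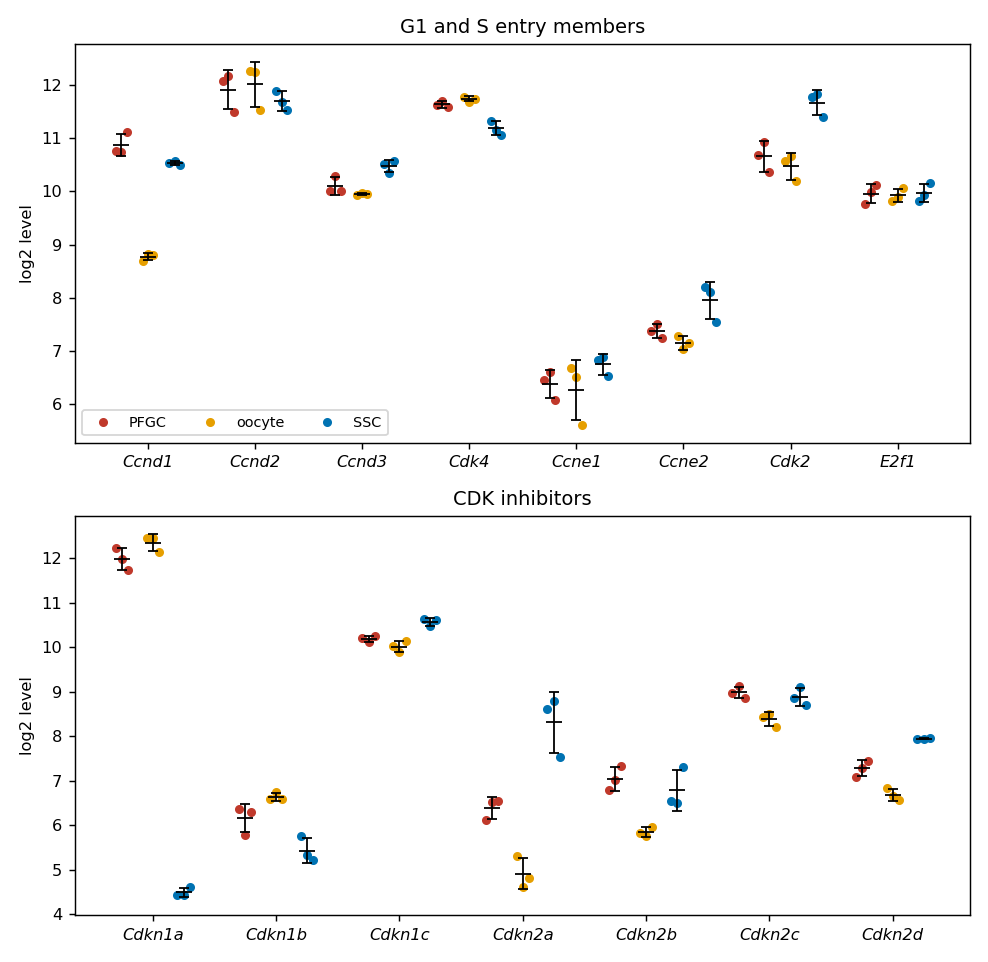
Log2 level on each array (points) with the group mean and SD (bars, n = 3) for the 8 genes of G1 and S entry (top) and the 7 CDK inhibitors (bottom), with PFGC left, oocytes in the middle and SSC right for each gene. Ccnd1 is low in oocytes alone, Cdk2 is highest and Cdk4 lowest in SSC, and Cdkn1a is high in PFGC and oocytes and not detected in SSC by the probe shown.

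The 14 measured genes of the mitotic list were not lower as a group, while further mitotic lists, given below, had lower medians against SSC. In PFGC against SSC, 3 of the 14 measured were called higher and 4 lower (21.4% and 28.6%), with a median log2 fold change of 0.04. In oocytes against SSC 3 were also called higher and 4 lower, with a median of -0.12. These counts were near the shares of all genes, but in PFGC both depended on the fit. The higher count was 6 of 14 with the replicate block (27.2% of all genes higher in that fit), with array weights (27%) and with the mean of a gene's probes (24.1%). It was 1 without normalization (18.1%) and 2 without PFGC replicate 1 (20.4%) or 2 (21.4%). The lower count was 1 with the dimmest kept probe (26.3% of all genes lower) and 2 with scaling to the 75th percentile (23.6%).

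Birc5, which encodes survivin, a subunit of the chromosomal passenger complex, had the largest increase. Its level was 11.32, 11.34 and 11.43 in PFGC, 11.03, 11.09 and 11.17 in oocytes, and 10.38, 10.69 and 10.46 in SSC. No 2 groups overlapped, with PFGC highest and SSC lowest. The log2 fold change was 0.86 in PFGC against SSC (SE 0.12, 1.81-fold, adjusted p = 0.000225) and 0.59 in oocytes against SSC (SE 0.12, 1.51-fold, adjusted p = 0.00184), and all 3 probes of Birc5 were called higher in both.

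Aurka, the spindle pole kinase Aurora A, was at 9.93, 9.94 and 9.91 in PFGC, 9.77, 9.87 and 9.71 in oocytes, and 9.41, 9.47 and 9.21 in SSC. Again the SSC arrays were lowest without overlap (0.57 in PFGC, SE 0.12, adjusted p = 0.00257, and 0.42 in oocytes, SE 0.12, adjusted p = 0.0103). Cdk1, the kinase that drives entry into mitosis and meiotic maturation, was at 10.86, 11.00 and 10.59 in PFGC, 10.46, 10.78 and 10.34 in oocytes, and 10.35, 10.27 and 10.32 in SSC. It was called higher in PFGC (0.51, SE 0.15, adjusted p = 0.0184) and not in oocytes (0.21, 95% interval -0.12 to 0.55), whose lowest array overlapped with SSC.

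Bub1b, the spindle checkpoint kinase BubR1, was at 10.28, 10.23 and 10.34 in PFGC, 10.39, 10.37 and 10.42 in oocytes, and 9.84, 9.95 and 10.19 in SSC. It was called higher in oocytes (0.40, SE 0.12, adjusted p = 0.0162), while in PFGC the log2 fold change of 0.29 had an adjusted p of 0.0697, or 0.0376 with the replicate block. The arrays of Bub1b in PFGC and oocytes did not overlap with SSC, whose replicate 3 lay closest to them. The dimmer kept probe of Bub1b was called higher in PFGC (0.49, adjusted p = 0.0153) and in oocytes.

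Among the mitotic genes called lower, Top2a, the topoisomerase that untangles sister chromatids, stood at 9.90, 10.06 and 9.68 in PFGC, 9.58, 9.52 and 9.21 in oocytes, and 10.56, 10.51 and 10.23 in SSC. Against SSC the decrease was 1.47-fold in PFGC (log2 fold change -0.56, SE 0.16, adjusted p = 0.0138) and 2.004-fold lower in oocytes (-1.003, SE 0.16, adjusted p = 0.000305). Cenpa, the centromeric histone, stood at 11.94, 12.00 and 12.56 in PFGC, 11.77, 11.80 and 12.26 in oocytes, and 12.75, 12.72 and 13.10 in SSC. The arrays numbered 3 were the highest of each group for Cenpa, and the SSC arrays were above all others. Its log2 fold change was -0.69 in PFGC (SE 0.20, adjusted p = 0.0177) and -0.91 in oocytes (SE 0.20, adjusted p = 0.00321), and its second probe gave -0.31 and -0.43 and was not called.

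Cdc20, the mitotic activator of the anaphase-promoting complex, read 10.89, 11.04 and 11.12 in PFGC, 10.49, 10.43 and 10.68 in oocytes, and 11.18, 11.59 and 11.45 in SSC. It was called lower in oocytes (-0.87, SE 0.14, adjusted p = 0.000412) and just passed the threshold in PFGC (-0.39, SE 0.14, adjusted p = 0.0452). Its dimmest kept probe was called in neither (-0.41 in oocytes, adjusted p = 0.14, and -0.57 in PFGC, adjusted p = 0.054). Aurkb, the kinase of the passenger complex, read 8.38, 8.70 and 8.58 in PFGC, 8.10, 7.93 and 8.09 in oocytes, and 8.80, 8.57 and 8.83 in SSC, and was called lower in oocytes (-0.70, SE 0.13, adjusted p = 0.00113) and not in PFGC (-0.18, 95% interval -0.48 to 0.11). So Birc5 was called higher and Aurkb lower in oocytes, although their proteins belong to 1 complex. Kif23, the kinesin of the central spindle, read 9.84, 10.02 and 10.41 in PFGC, 10.35, 10.38 and 10.71 in oocytes, and 10.40, 10.52 and 10.88 in SSC. It was called lower in PFGC alone (-0.51, SE 0.19, adjusted p = 0.0452), with arrays that overlapped with SSC. Its dimmest kept probe was not called there (-0.23, adjusted p = 0.159).

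The remaining mitotic genes were not called against SSC. Plk1, the Polo kinase, gave -0.03 in PFGC (95% interval -0.45 to 0.40) and -0.16 in oocytes (95% interval -0.58 to 0.27). The spindle kinesin gene Kif11 gave 0.10 in PFGC (95% interval -0.18 to 0.38) and -0.12 in oocytes (95% interval -0.40 to 0.16). Tpx2, which activates Aurora A, gave -0.32 in PFGC (95% interval -1.08 to 0.43) and -0.84 in oocytes (95% interval -1.59 to -0.08, adjusted p = 0.0571, or 0.0114 with the replicate block). The microtubule bundlers Prc1 and Nusap1 had log2 fold changes between 0.32 and 0.36 in both comparisons, and all 4 of these values passed with the replicate block (adjusted p = 0.0201 for each gene in PFGC, and 0.0181 for Prc1 and 0.0236 for Nusap1 in oocytes).

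Promoters of mitotic genes are shown for Birc5 (chr11:117848987-117849286, plus strand) and Cenpa (chr5:30666636-30666935, plus strand), which had the largest differences in PFGC in their class, and, chosen after the matches were seen, for Cdk1 (chr10:69352863-69353162, minus strand) and Top2a (chr11:99024140-99024439, minus strand). Cdk1 was higher and Top2a lower in PFGC, and both windows hold CHR elements. Capitals mark matches as above, 5′ to 3′.
Birc5: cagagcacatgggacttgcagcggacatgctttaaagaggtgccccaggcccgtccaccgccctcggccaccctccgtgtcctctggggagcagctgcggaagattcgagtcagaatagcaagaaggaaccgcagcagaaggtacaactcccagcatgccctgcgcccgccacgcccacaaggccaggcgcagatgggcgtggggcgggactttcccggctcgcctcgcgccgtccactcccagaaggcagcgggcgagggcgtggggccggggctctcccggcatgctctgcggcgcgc
Cenpa: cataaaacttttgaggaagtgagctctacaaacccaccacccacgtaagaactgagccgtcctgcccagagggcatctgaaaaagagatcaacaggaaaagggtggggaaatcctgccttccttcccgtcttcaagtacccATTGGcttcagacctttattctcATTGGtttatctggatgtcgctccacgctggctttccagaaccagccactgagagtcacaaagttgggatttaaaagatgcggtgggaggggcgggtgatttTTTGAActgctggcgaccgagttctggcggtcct
Cdk1: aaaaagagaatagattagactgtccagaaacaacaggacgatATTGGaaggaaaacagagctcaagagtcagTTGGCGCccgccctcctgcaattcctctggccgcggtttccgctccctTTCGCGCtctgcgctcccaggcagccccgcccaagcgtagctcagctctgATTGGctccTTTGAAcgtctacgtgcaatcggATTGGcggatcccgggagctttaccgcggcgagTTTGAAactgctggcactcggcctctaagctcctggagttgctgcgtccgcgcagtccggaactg
Top2a: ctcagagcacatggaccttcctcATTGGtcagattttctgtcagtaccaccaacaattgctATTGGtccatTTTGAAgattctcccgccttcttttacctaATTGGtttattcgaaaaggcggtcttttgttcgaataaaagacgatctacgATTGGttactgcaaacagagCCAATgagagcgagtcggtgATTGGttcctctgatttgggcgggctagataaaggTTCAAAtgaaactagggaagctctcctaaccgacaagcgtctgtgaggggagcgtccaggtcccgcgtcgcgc
Cdk1 has 2 E2F sites, 2 CHR elements and 3 CCAAT boxes, and Top2a has 2 CHR elements and 6 CCAAT boxes. Cenpa has 1 CHR element and 2 CCAAT boxes. None of the letters searched occurs in the window of Birc5.

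Of the late cycle transcription factors, Mybl2, which activates mitotic genes as B-Myb, read 8.78, 8.66 and 8.68 in PFGC, 8.56, 8.61 and 8.80 in oocytes, and 8.13, 8.22 and 8.17 in SSC. The SSC arrays were lowest without overlap, and Mybl2 was called higher in PFGC (0.54, SE 0.11, adjusted p = 0.00302) and in oocytes (0.49, SE 0.11, adjusted p = 0.00421). The dimmer kept probe of Mybl2 was called in neither (0.44 in PFGC, adjusted p = 0.0506, and 0.28 in oocytes, adjusted p = 0.183). Foxm1, its partner on mitotic promoters, gave 0.26 in PFGC (95% interval -0.04 to 0.56) and 0.31 in oocytes (95% interval 0.01 to 0.61, adjusted p = 0.0754, or 0.0361 with the replicate block).

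**Figure D3:**
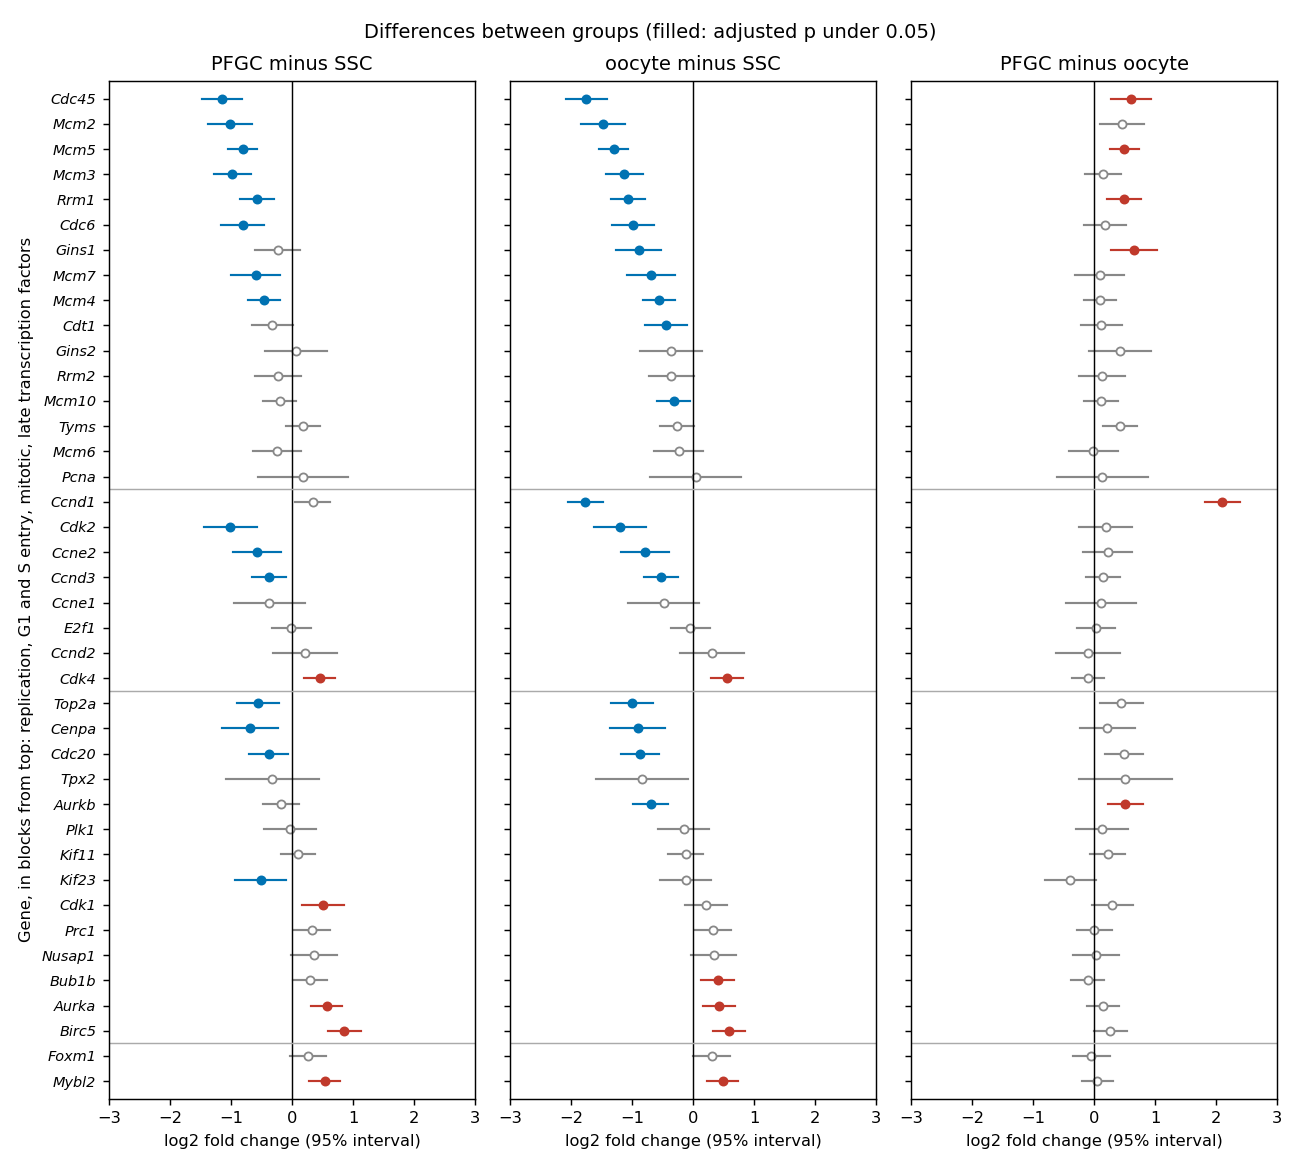
Log2 fold change (points) with its 95% interval (bars) for each of the 40 measured genes in PFGC minus SSC, oocyte minus SSC and PFGC minus oocyte, in blocks for replication, G1 and S entry, mitotic genes and late cycle transcription factors. Filled points passed an adjusted p of 0.05 (blue lower, red higher). The replication block lies to the left of 0 in the first 2 panels apart from Gins2, Tyms and Pcna in PFGC and Pcna in oocytes, and the mitotic block lies on both sides.

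PFGC and oocytes differed in few of these genes. Of the 40, 6 were called higher in PFGC and 0 lower, 15%, beside 10.1% of all genes called in either direction, 6.8% higher and 3.3% lower. At an unadjusted p under 0.05, 10 were higher and 0 lower, with no share of all genes counted at that cutoff. The 6 were Ccnd1, the replication genes Cdc45, Mcm5, Gins1 and Rrm1, and Aurkb. The differences were small except for Ccnd1, which was 4.29-fold higher in PFGC (log2 fold change 2.10, SE 0.13, adjusted p = 7.34e-06) and whose other 2 probes gave 2.20 and 2.85. Cdc45 was 1.52-fold higher (0.60, SE 0.15, adjusted p = 0.0359), Gins1 1.57-fold (0.65, SE 0.17, adjusted p = 0.0387), Mcm5 1.41-fold (0.49, SE 0.11, adjusted p = 0.0203), Rrm1 1.40-fold (0.49, SE 0.13, adjusted p = 0.0401) and Aurkb 1.43-fold (0.51, SE 0.13, adjusted p = 0.0396). The replicate block gave 11 genes higher and 1 lower, beside 11.1% higher and 7.44% lower over all genes in that fit, adding Mcm2, Gins2, Tyms, Cdc20 and Top2a as higher (adjusted p between 0.0204 and 0.0414) and Kif23 as lower (-0.39, adjusted p = 0.0282). Without normalization between arrays 1 gene, Ccnd1, was called higher and 1, Kif23, lower, beside 3.67% and 7.38% of all genes.

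Arrays of PFGC lay wholly above those of oocytes for 14 of the 40 genes and wholly below for 1, beside 19.7% and 17.5% of all genes. Against SSC, PFGC arrays lay wholly above for 8 genes and wholly below for 16 (26.9% and 31.3% of all genes), and oocyte arrays wholly above for 7 and wholly below for 20 (30.5% and 35.3% of all genes). The means ran lowest in oocytes, intermediate in PFGC and highest in SSC for 23 of the 40 genes (57.5%, beside 33.5% of all genes), among them 12 of the 16 replication genes. PFGC lay between the other groups for 27 of the 40 genes (67.5%), which is near the 64% of all genes.

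Further genes of the fork were set beside the replication genes. Of 17 measured DNA polymerase, clamp loader and fork factor genes, 10 were called lower and 2 higher in PFGC against SSC. In oocytes against SSC 15 were lower and 2 higher. Over all genes 26.8% were called lower and 23.7% higher in PFGC, and 32.4% lower and 28.1% higher in oocytes. The median log2 fold changes of the list were -0.47 in PFGC and -0.88 in oocytes, against -0.06 and -0.07 over all genes. Pole, the catalytic subunit of the leading-strand polymerase, was at 6.55, 7.03 and 6.95 in PFGC, 6.12, 6.21 and 6.28 in oocytes, and 8.34, 8.19 and 8.46 in SSC. SSC was far above both, and Pole was 2.80-fold lower in PFGC (-1.48, SE 0.15, adjusted p = 2.06e-05) and 4.37-fold lower in oocytes (-2.13, SE 0.15, adjusted p = 9.21e-07). Pold1, of the lagging-strand polymerase, was 2.09-fold lower in PFGC and 3.27-fold lower in oocytes, and Rpa2, of the complex that coats single-stranded DNA, was 2.43-fold lower in PFGC and 3.14-fold lower in oocytes.

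The 2 genes of that list called higher maintain DNA methylation. Dnmt1, the maintenance methyltransferase, was at 10.78, 10.94 and 11.00 in PFGC, 11.09, 11.02 and 11.17 in oocytes, and 9.99, 9.72 and 10.25 in SSC. It was 1.89-fold higher in PFGC (0.92, SE 0.15, adjusted p = 0.000554) and 2.15-fold higher in oocytes (1.11, SE 0.15, adjusted p = 0.00011). Uhrf1, which brings DNMT1 to replicated DNA, was 1.37-fold higher in PFGC (0.46, SE 0.11, adjusted p = 0.00719) and 1.29-fold higher in oocytes (0.37, SE 0.11, adjusted p = 0.0175). In PFGC against oocytes 6 genes of the list were called higher and 0 lower, beside 6.8% and 3.3% of all genes. With the replicate block 9 were called higher, beside 11.1% of all genes in that fit, and without normalization between arrays 0 were called in that comparison.

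Origin genes were mixed. Of 8 measured, 1 was called higher and 3 lower in PFGC, and 2 higher and 4 lower in oocytes, against SSC. The shares of all genes were 23.7% higher and 26.8% lower in PFGC, and 28.1% higher and 32.4% lower in oocytes. Cdc7, the kinase that fires origins, was 1.99-fold lower in PFGC (-0.99, SE 0.12, adjusted p = 7.68e-05) and 2.85-fold lower in oocytes (-1.51, SE 0.12, adjusted p = 2.35e-06). Orc5, a subunit of the origin recognition complex, was 2.19-fold higher in PFGC (1.13, SE 0.12, adjusted p = 2.32e-05) and 2.11-fold higher in oocytes (1.08, SE 0.12, adjusted p = 2.2e-05), while Orc1 of the same complex was 1.89-fold lower in PFGC and 2.61-fold lower in oocytes.

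Inhibitors of cyclin-dependent kinases held the largest difference of all the cell cycle lists. Cdkn1a, which encodes p21, read 12.24, 11.98 and 11.74 in PFGC and 12.47, 12.45 and 12.13 in oocytes by its brightest probe, which was detected on no SSC array. It was at least 105-fold higher in PFGC (adjusted p = 2.2e-10) and at least 135-fold higher in oocytes (adjusted p = 1.46e-10) than in SSC, where the bound takes the lowest level of any detected probe on each SSC array. Its other 2 probes were detected in SSC and gave smaller differences, 12.8-fold and 12.7-fold in PFGC, and 16.5-fold and 15.0-fold in oocytes, so the size of the Cdkn1a difference depends on the probe.

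Cdkn1b, which encodes p27, was also called higher in PFGC (1.65-fold, log2 fold change 0.72, SE 0.19, adjusted p = 0.00942) and in oocytes (2.31-fold, 1.21, SE 0.19, adjusted p = 0.000308). In contrast Cdkn2a, the locus of p16 and p19ARF, read 6.11, 6.53 and 6.54 in PFGC, 5.30, 4.62 and 4.82 in oocytes, and 8.62, 8.79 and 7.53 in SSC, with replicate 3 lowest of the SSC arrays. Cdkn2a was 3.78-fold lower in PFGC (-1.92, SE 0.31, adjusted p = 0.000551) and 10.6-fold lower in oocytes (-3.40, SE 0.31, adjusted p = 6.59e-06), where it was detected on 1 of 3 arrays. Over the 7 inhibitors, 2 were called higher and 3 lower in PFGC, and 2 higher and 5 lower in oocytes. The shares of all genes were 23.7% higher and 26.8% lower in PFGC, and 28.1% higher and 32.4% lower in oocytes. Of these 7, Cdkn1c was called lower in PFGC (-0.38) and in oocytes (-0.56). In PFGC against oocytes Cdkn2a, Cdkn2b, Cdkn2c and Cdkn2d were called higher, by log2 fold changes of 1.48, 1.19, 0.60 and 0.59. In that comparison 6.8% of all genes were called higher and 3.3% lower. Without normalization between arrays 2 of the 7 inhibitors were called higher and 1 lower there, beside 3.67% and 7.38% of all genes.

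Of 13 RB, E2F and MuvB genes, PFGC had 2 called higher than in SSC and 3 lower, beside 23.7% and 26.8% of all genes. Oocytes had 3 called higher and 2 lower, beside 28.1% and 32.4% of all genes. The repressor E2Fs E2f4 (0.79 in PFGC and 0.83 in oocytes) and E2f5 (0.85 in PFGC and 1.07 in oocytes) were among those higher, and Rbbp4, a histone-binding subunit of MuvB, was lower (-0.83 in PFGC and -0.997 in oocytes). In PFGC against oocytes limma called 0 of the 13, beside 10.1% of all genes, and 1 was lower at an unadjusted p under 0.05.

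Mitotic machinery beyond the chosen genes was counted beside all genes, of which 23.7% were called higher and 26.8% lower in PFGC, and 28.1% higher and 32.4% lower in oocytes, against SSC. Of 14 checkpoint and kinetochore genes 2 were higher and 4 lower in PFGC (8 lower with the replicate block, beside 31.8% of all genes in that fit) and 1 higher and 7 lower in oocytes. Their median log2 fold changes were -0.38 in PFGC and -0.67 in oocytes, against -0.06 and -0.07 over all genes. Zwilch, of the complex that recruits dynein to kinetochores, was 1.52-fold lower in PFGC and 2.38-fold lower in oocytes, whereas the checkpoint gene Bub3 was 1.44-fold higher in PFGC and 1.43-fold higher in oocytes. Of 10 genes of the anaphase-promoting complex and its inhibitors, 2 were higher and 3 lower in PFGC, and 1 higher and 5 lower in oocytes, with Anapc2 lower (-0.98 in PFGC and -1.24 in oocytes) and Anapc7 higher (0.68 in PFGC and 0.59 in oocytes). The median log2 fold changes of these 10 were -0.27 in PFGC and -0.21 in oocytes.

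Among 7 measured genes of B cyclins, CDC25 phosphatases and WEE1 and their partners, 0 were higher and 4 lower in PFGC, and 0 higher and 5 lower in oocytes. Of all genes 23.7% were higher and 26.8% lower in PFGC, and 28.1% higher and 32.4% lower in oocytes. The median log2 fold changes of the 7 genes were -0.69 in PFGC and -0.96 in oocytes. Ccnb3, a B-type cyclin, had log2 fold changes of -1.78 in PFGC and -2.23 in oocytes, and Ccnf, cyclin F, of -1.11 in PFGC and -1.59 in oocytes. Wee1, which restrains CDK1, was detected on the 3 SSC arrays alone and was at least 1.25-fold lower in PFGC (adjusted p = 0.000816) and at least 1.29-fold lower in oocytes (adjusted p = 0.000173). It passed the detection filter through the SSC arrays alone, so against SSC it could be called only as lower. Its calls are among those counted above and are no independent support. With the replicate block 1 gene of this list was called higher and 5 lower in PFGC against SSC, and 4 higher and 0 lower in PFGC against oocytes, where limma without it called 0 (3 higher at an unadjusted p under 0.05). Over all genes that block called 27.2% higher and 31.8% lower in PFGC against SSC, and 11.1% higher and 7.44% lower in PFGC against oocytes. Cohesin, condensin and separase genes were called higher for 1 and lower for 5 of 10 in PFGC, and 1 and 4 of 10 in oocytes, with the condensin gene Ncapd2 lower (-0.81 in PFGC and -1.18 in oocytes). The median log2 fold changes of these 10 were -0.30 in PFGC and -0.31 in oocytes.

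**Figure D4:**
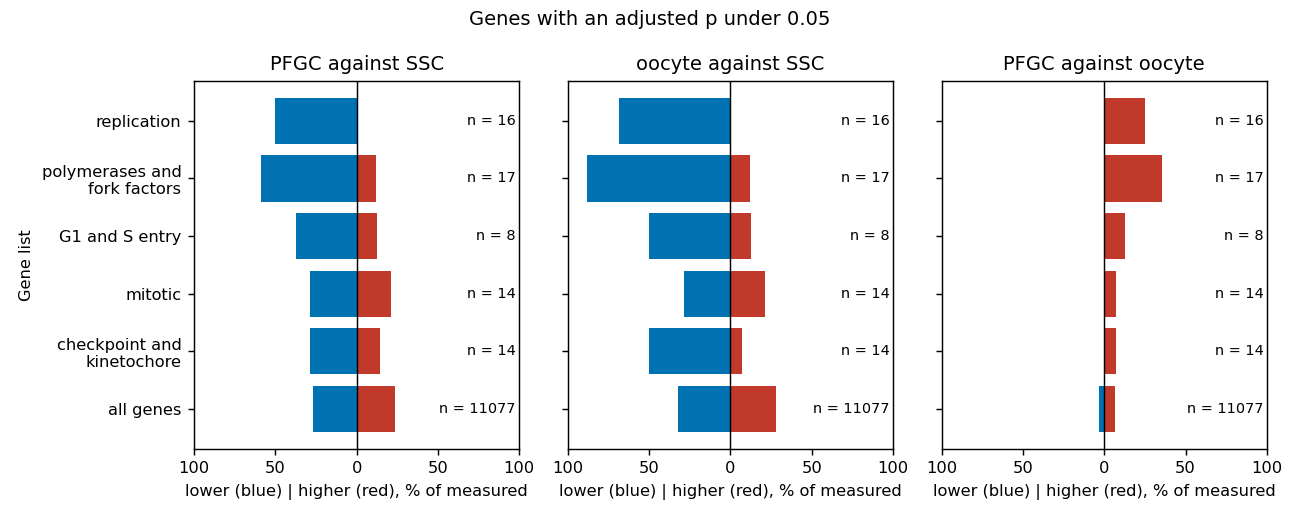
Share of measured genes (in percent) called lower (blue, to the left) and higher (red, to the right) in each list and over all 11077 genes, for PFGC against SSC, oocytes against SSC and PFGC against oocytes, with the number measured beside each bar. Replication genes and polymerase and fork genes have longer blue bars than all genes against SSC, and the mitotic bars are close to those of all genes in this fit, which has no replicate block. The blue bar of checkpoint and kinetochore genes is longer than that of all genes in oocytes against SSC (50% and 32.4%).

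Leaving out 1 array ended several calls. Beside the values above, 9 such omissions and 17 other settings were run. In PFGC against SSC, 8 of the 20 calls held under every alternative (Mcm2, Mcm3, Mcm5, Cdc6, Cdc45, Rrm1, Cdk2 and Birc5). The calls of Mcm7, Ccnd3, Ccne2, Cdk1, Cdc20, Top2a, Cenpa and Kif23 were each lost without 2 or more of the single arrays, with adjusted p up to 0.0712 for Mcm7 without PFGC replicate 1, 0.099 for Ccnd3 without PFGC replicate 1, 0.085 for Ccne2 without SSC replicate 1, 0.0726 for Cdk1 without PFGC replicate 2, 0.144 for Cdc20 without PFGC replicate 1, 0.053 for Top2a without SSC replicate 1, and 0.0704 for Cenpa and 0.159 for Kif23 without PFGC replicate 1. Without normalization between arrays the calls of Ccnd3, Cdk4, Cdk1, Aurka and Mybl2 in PFGC were lost, with their directions kept. In oocytes against SSC, 14 of the 24 calls held under every alternative, and Mcm10 (adjusted p up to 0.156, without SSC replicate 1), Cdt1 (up to 0.118, without oocyte replicate 1) and Bub1b (0.0659, without SSC replicate 1) lost theirs without single arrays. In PFGC against oocytes the call of Ccnd1 alone held throughout, and those of Mcm5, Cdc45, Gins1, Rrm1 and Aurkb were each lost without 4 to 6 of the single arrays, with adjusted p up to 0.15.

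The arrays numbered 3 deviated together most. On them, 10 of the 40 genes had the highest value of their group in all 3 groups (Pcna, Cdt1, Gins2, E2f1, Bub1b, Plk1, Cenpa, Kif23, Nusap1 and Tpx2) and 9 had the lowest (Mcm2, Cdc45, Ccnd2, Ccne1, Cdk2, Aurka, Top2a, Prc1 and Foxm1), beside 16.5% and 17.5% of all genes. On the arrays numbered 1 these counts were 1 highest and 4 lowest (5.8% and 4.68% of all genes), and on those numbered 2 they were 3 highest and 1 lowest (4.92% and 4.78%). With the 3 arrays numbered 3 left out, which was chosen after seeing the data, 7 of 16 replication genes were called lower and 0 higher in PFGC against SSC, 11 lower and 0 higher in oocytes against SSC, and in PFGC against oocytes Ccnd1 was the 1 gene of the 40 called. Of all genes that fit called 27.5% lower and 24.5% higher in PFGC against SSC. In oocytes against SSC it called 33.4% lower and 29.2% higher, and in PFGC against oocytes 6.74% either way.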

How the data were processed

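RNA of 9 samples (PFGC, oocyte and SSC, 3 each) was measured on Illumina arrays. The deposited table holds a probe's intensity on each array, not normalized between arrays per the file headers, and a detection p-value from the authors' software for each. Per the submitters' processing notes this was GenomeStudio (version not given in the sources used here). A processed value table by the authors, whose deposited intensity columns share 1 distribution, served in an alternative.

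Intensities were corrected with limma's normexp method (offset 16, background inferred from the detection p-values), quantile-normalized and taken to log2. Probes with a detection p-value under 0.01 on at least 3 arrays were kept (19934 of 45281). Of all probes 34885 have 1 gene symbol in the platform annotation, 18 several and 10378 none. One linear model over the 3 groups was fitted with limma 3.58.1 in R 4.3.3, with Benjamini-Hochberg adjustment over all kept probes. A gene counts by its brightest kept probe. Where no array of the dimmer group detected a probe, the fold is a lower bound, against the lowest detected signal. Figures were drawn with matplotlib 3.10.9 in Python 3.11.15. The fit was tested on simulated data.

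The members, gene lists and markers were chosen with earlier results of these data known, so a pattern in them is no independent evidence. Any member could be named. Values in every sample are given for up to 4 called members a class and comparison with the largest change, and for all of Mcm2 to Mcm7 and the D cyclins, with further members added after their values were seen. Up to 3 called genes of each pathway list and comparison are named, with Cdkn1a always, and Uhrf1 and Bub3 were added after their values were seen. Up to 2 genes of each marker list were to be named, and granulosa markers beyond that were added after their values were seen.

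The replicate numbers come from the sample titles. Deviations from the group means correlated across probes between arrays of the same number (r between 0.404 and 0.564 for the 3 pairs numbered 3, and between 0.136 and 0.304 for the others). Between arrays of different numbers r ranged from -0.424 to 0.246, which overlaps with the pairs numbered 1 and 2. Since every same-number r was over 0.1, the numbers were taken to pair the arrays in the replicate block. Arrays of different numbers also reached that r, so the cutoff cannot show that the arrays are paired. The main fit has no block, and its p-values treat the arrays as unpaired. Comparisons were PFGC against SSC, oocyte against SSC and PFGC against oocyte, and alternatives covered normalization, background, filter, probe choice, samples in the fit, moderation, weights, the replicate block and each array left out.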

Additional observations from a re-analysis of the deposited data

How the results depend on the processing

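No gene changed direction and passed the threshold the other way under any of the 26 alternatives. Among the 40 cell cycle genes in PFGC against SSC, 5 were called higher, and this count was 1 without normalization, 8 with an offset of 50, without background correction, from the processed value table, with trend and robust moderation and with array weights, and 9 with the mean of a gene's probes and with the replicate block. Of all genes, 18.1% were called higher without normalization and 24% to 27.2% in the other fits named, beside 23.7% in the main fit. With each array left out in turn, 13 to 21 of the 40 genes were called in PFGC against SSC, 4 to 6 higher and 9 to 15 lower, beside 43% to 50.9% of all genes called. In oocytes against SSC the 5 higher became 8 with the replicate block, and with each array left out 22 to 27 were called, 5 to 7 higher and 17 to 20 lower. The block called 31.1% of all genes higher, beside 28.1% in the main fit. The fits with an array left out called 54.3% to 61% of all genes. In PFGC against oocytes, where 6 were called, all higher, the counts were 2 called, 1 higher and 1 lower, without normalization, 10 called and higher with array weights, 12 called, 11 higher and 1 lower, with the replicate block, and 1 called and higher without the arrays numbered 3. In that order these fits called 11%, 23.6%, 18.5% and 6.74% of all genes, beside 10.1% in the main fit. Leaving out 1 array gave 1 to 7 called, all higher and 0 lower, with 1 called without PFGC replicate 2 or 3 or oocyte replicate 1 or 2, and 2 without oocyte replicate 3. Those fits called 3.64% to 12.8% of all genes. The replicate block changed no call beside those it added. Of 1039 gene values a comparison under the alternatives, 943 kept their call, 56 lost and 40 gained one in PFGC against SSC; 974, 27 and 38 did so in oocytes against SSC; and 977, 39 and 23 in PFGC against oocytes. Without normalization the median log2 fold change of all genes was -0.14 in PFGC against SSC, 0.08 in oocytes against SSC and -0.24 in PFGC against oocytes, beside -0.06, -0.07 and -0.01 with it, and relative to those medians the calls lost without it are to be read. That setting also turned the split over all genes in PFGC against oocytes to 3.67% higher and 7.38% lower, from 6.8% and 3.3%, and in oocytes against SSC to 29.7% higher and 22% lower, from 28.1% and 32.4%. The cause of these shifts was not tested. Slide as a block was not run, since the file headers give no slide. With 3 arrays a group the median SE of a log2 fold change was 0.16, which limits what can be called among small differences, and dim probes such as those of Pcna and Tpx2 are less precise.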
